A study of Arabidopsis thaliana with 4 samples.

Results

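The expression of 8 genes of the phytochrome and shade response was examined in *35S-COLDAIR* and Col-0 seedlings. They were taken by gene identifier from the 33854 genes of the deposited tables and comprise 5 PHYTOCHROME INTERACTING FACTOR genes, *PIF1*, *PIF3*, *PIF4*, *PIF5* and *PIF7*, and 3 genes of the shade response, *HFR1*, *PIL1* and *ATHB2*. *35S-COLDAIR* plants are Col-0 plants with a transgene in which the constitutive *CaMV 35S* promoter drives *COLDAIR*, a noncoding RNA of the first intron of *FLC*, and the study's text ties the RNA-seq comparison to 1 of its transgenic lines, *35S-COLDAIR #3*. Col-0 seedlings without the transgene were the wild type. Seedlings of both genotypes were kept at 22 °C on MS medium, in days of 16 h light and 8 h dark, and were taken at 12 days for poly-A RNA, with 2 libraries per genotype. No shade, darkness or heat treatment was part of the design.

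PIF proteins are basic helix-loop-helix (bHLH) transcription factors that bind G-box elements. Phytochromes activated by light bind PIF proteins and bring about their degradation or inactivation, and in shade, where phytochrome B is less active, PIF4, PIF5 and PIF7 promote elongation through auxin genes. *PIL1*, *HFR1* and *ATHB2* are classical early shade-induced genes, and the circadian clock is known to set the transcript levels of *PIF4* and *PIF5* over the day. The hour at which the seedlings were collected is not given in the sources used here.

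Levels are in FPKM, that is, fragments mapped to a gene per kilobase of its transcript, scaled to the library's mapped fragments. They summed to 928299 to 951940 per library. The tables hold no fragment numbers, but the steps of the lowest values put the *35S-COLDAIR* library at 1.09 times the depth of its Col-0 library in replicate 1 and at 1.13 times in replicate 2. Each table holds 1 library of each genotype, and whether both tables were scaled together is not stated in the sources used here, so values set across replicate numbers rest on the assumption that they were. Nothing in the labels says that the libraries of a genotype came from separate cultures, so p-values measure only the spread between these libraries, which may be technical. *FLC* was at 43.4 and 37.6 FPKM in *35S-COLDAIR* and at 2.05 and 1.13 FPKM in Col-0. Its difference of log2(FPKM + 1) was 4.02, with an adjusted p of 0.083 by limma. That scale understates a change from levels as low as those in Col-0. Markers of green tissue were at 3596 to 27398 FPKM, those of roots at 3.33 to 26.2 FPKM, those of seeds at 0.102 to 22.0 FPKM, and those of flowers at 1.06 FPKM or less. The root marker *EXPA7* was at 4.57 and 3.33 FPKM in *35S-COLDAIR* and at 5.56 and 6.63 FPKM in Col-0. *PRP3* was at 18.2 and 15.1 FPKM in *35S-COLDAIR* and at 18.3 and 23.7 FPKM in Col-0. The genotypes overlapped for *CASP1*, at 25.3 and 19.8 FPKM in *35S-COLDAIR* and at 24.0 and 26.2 FPKM in Col-0. In whole seedlings, fewer cells that express a gene and less RNA per cell cannot be told apart.

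The letters that PIF proteins bind were looked up first. In TAIR10.1 (RefSeq), the 2000 bases before the annotated start of each gene were searched for the G-box, CACGTG, which reads the same on both strands, and for the PBE-box, CACATG, on both strands. A G-box and a PBE-box cannot share bases, whereas PBE-boxes on opposite strands can. A G-box was present for *PIL1* (3), *HFR1* (2), *PIF5* (1) and *PIF7* (1), as for 23.8% of 27435 protein-coding genes. The windows of *ATHB2*, *PIF1*, *PIF3* and *PIF4* held 0. A PBE-box was present for *PIF7* (3), *PIF3* (1), *PIF4* (1) and *HFR1* (1), as for 61.0% of all these genes. Within 1000 bases, *HFR1* and *PIF5* had a G-box, as did 14.8% of 27438 genes, and the longer window was added after that result was seen. It runs into neighbouring genes for *PIF4*, *PIF5*, *HFR1* and *PIL1*, but the stretches below lie in none. They are shown because they hold each G-box found before these genes, in capitals, on the minus strand, which is the strand of each gene, 5′ to 3′.
PIL1, chr2:19299048-19299107, G-box 1222 bases before the start: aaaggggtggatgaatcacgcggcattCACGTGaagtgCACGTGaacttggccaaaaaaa
PIL1, chr2:19298919-19298978, G-box 1093 bases before the start: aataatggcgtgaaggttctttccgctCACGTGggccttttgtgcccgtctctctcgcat
HFR1, chr1:469267-469326, G-box 1419 bases before the start: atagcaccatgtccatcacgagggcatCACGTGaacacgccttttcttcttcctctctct
HFR1, chr1:468848-468907, G-box 1000 bases before the start: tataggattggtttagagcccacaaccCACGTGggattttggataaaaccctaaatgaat
PIF5, chr3:21830970-21831029, G-box 165 bases before the start: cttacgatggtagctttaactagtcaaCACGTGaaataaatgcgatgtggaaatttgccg
PIF7, chr5:24641996-24642055, G-box 1263 bases before the start: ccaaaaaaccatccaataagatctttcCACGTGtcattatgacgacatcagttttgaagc
The first stretch of *PIL1* holds a pair of G-boxes, the second of them 1211 bases before the start. A match describes letters and is no measure of binding.

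The 8 genes fell into 4 levels of expression that did not overlap, and FPKM, being per length, allows genes to be set side by side. *PIF4* (AT2G43010) and *PIF5* (AT3G59060), which promote hypocotyl and petiole elongation, had the highest levels, with means over the 4 libraries of 120.2 and 110.4 FPKM, above 94.2% and 93.7% of the 20142 genes tested. Their ranges overlapped, with *PIF4* above *PIF5* in 3 of 4 libraries. *ATHB2* (AT4G16780), a homeodomain-leucine zipper (HD-Zip) gene of class II, followed with 68.3 FPKM and overlapped neither *PIF5* above it nor *PIF1* below it. *PIF1* (AT2G20180), a repressor of germination and chlorophyll synthesis in the dark, had a mean of 26.0 FPKM, and *HFR1* (AT1G02340) one of 24.7 FPKM. *PIF3* (AT1G09530), a regulator of de-etiolation, and *PIF7* (AT5G61270), a main mediator of rapid shade responses, had means of 24.2 and 21.9 FPKM. Each of these 4 genes overlapped its neighbour in this order, although *PIF3* was above *PIF7* within 4 of 4 libraries. *PIL1* (AT2G46970) was below all others, with a mean of 1.73 FPKM and a range from 0.994 to 2.43 FPKM.

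**Figure D1:**
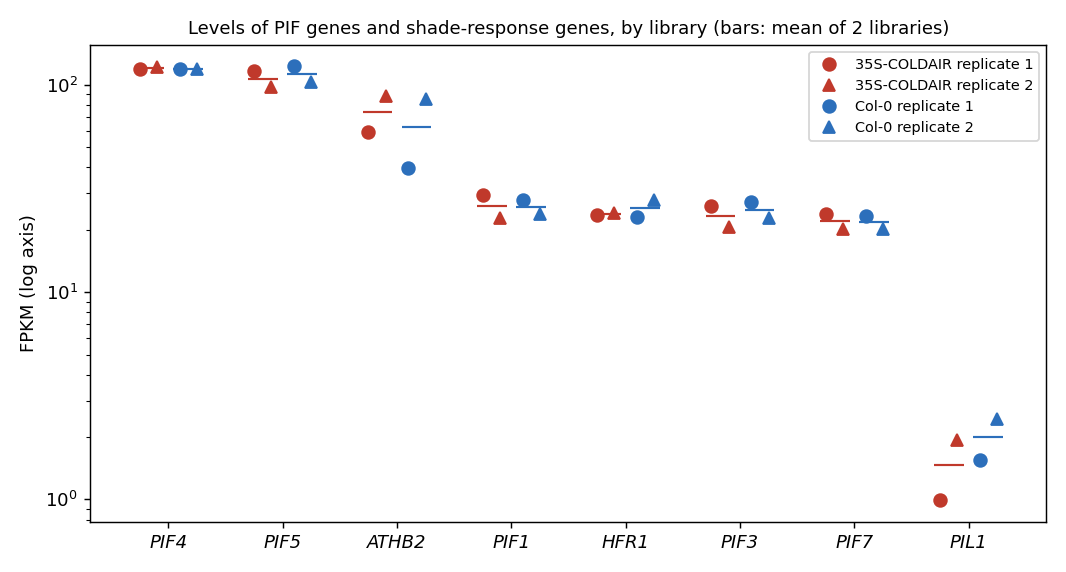
Level of each gene in FPKM on a log axis, with 35S-COLDAIR libraries in red on the left and Col-0 libraries in blue on the right, circles for replicate 1, triangles for replicate 2 and bars for the mean of 2 libraries. The libraries of the genotypes overlap for all 8 genes, and the circles and triangles of *ATHB2* and *PIL1* stand further apart than the red and blue bars.

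The comparison of the genotypes asks whether these genes differ in seedlings that carry the *COLDAIR* transgene. None of the 8 passed the test, and 6 of 8 differed by less than 0.1 on the log2 scale. All 8 passed the filter, a mean of at least 0.5 FPKM. By limma across all genes, 0 of 8 had an adjusted p (Benjamini-Hochberg) under 0.05, against 0.00993% of the 20142 genes tested. At an unadjusted p under 0.05 the count was also 0 of 8, against 2.59% of all genes. Each adjusted p was 0.9998 by limma, and the lowest unadjusted p was 0.34, of *PIL1*. The libraries of the genotypes were apart for 0 of 8 genes, against 29.1% of all genes tested. The median size of the difference was 0.085 for the 8 genes and 0.088 for all genes tested, with 4 genes on the higher and 4 on the lower side in *35S-COLDAIR*. With 2 libraries per genotype, no exact 2-sided permutation test of 1 gene can reach a p below 0.333. Differences are of log2(FPKM + 1), 35S-COLDAIR minus Col-0, which understates changes of low genes such as *PIL1*.

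*PIF4* had the narrowest spread of the 8 genes. The *35S-COLDAIR* libraries had 119.7 FPKM in replicate 1 and 121.8 FPKM in replicate 2, and the Col-0 libraries 119.7 and 119.8 FPKM. The highest library was thus 1.02 times the lowest. The difference was 0.012 (standard error 0.064), with a 95% interval from -0.16 to 0.18, or 0.896-fold to 1.14-fold on this scale.

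*PIF5*, the closest relative of *PIF4*, had 116.8 FPKM (replicate 1) and 97.7 FPKM (replicate 2) in *35S-COLDAIR*, against 123.1 and 103.9 FPKM in Col-0. Within each replicate number *35S-COLDAIR* was the lower library, but the replicate 1 library of *35S-COLDAIR* exceeded the replicate 2 library of Col-0. The difference was -0.081 (standard error 0.13), with a 95% interval from -0.44 to 0.28. *PIF3* was arranged in the same way, with 26.0 and 20.7 FPKM in *35S-COLDAIR* against 27.2 and 22.7 FPKM in Col-0. Its difference was -0.097 (standard error 0.15), with a 95% interval from -0.51 to 0.31.

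*PIF1* had 29.5 FPKM (replicate 1) and 22.9 FPKM (replicate 2) in *35S-COLDAIR*, against 27.8 and 23.8 FPKM in Col-0, so that the transgenic library was the higher one in replicate 1 and the lower one in replicate 2. The difference of *PIF1* was 0.015 (standard error 0.16), with a 95% interval from -0.40 to 0.43. *PIF7* had 23.8 and 20.1 FPKM in *35S-COLDAIR* against 23.3 and 20.2 FPKM in Col-0. Its difference was 0.014 (standard error 0.13), with a 95% interval from -0.33 to 0.36. For *PIF1*, *PIF3*, *PIF5* and *PIF7* alike, both replicate 1 libraries were above both replicate 2 libraries.

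In TAIR10.1, *PIF1* lies on chromosome 2 (8704024 to 8707009, minus strand) and shares 334 of its 2986 bases with AT2G20170 on the plus strand. *PIF7* lies on chromosome 5 (24638491 to 24640765, minus strand) and shares 318 of its 2275 bases with AT5G61260 on the plus strand. No strand setting is given in the sources used here, so fragments from the shared bases cannot be told apart. AT2G20170 was listed at 0 FPKM in all 4 libraries, and AT5G61260 at 1.50 and 1.71 FPKM in *35S-COLDAIR* and at 1.82 and 2.08 FPKM in Col-0, below *PIF7* in each library. The other 6 genes share no bases with an annotated gene.

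The shade-response genes *PIL1* and *ATHB2* had wider spreads than the PIF genes, and *HFR1* did not. *HFR1*, an atypical bHLH protein that dimerizes with PIF4 and PIF5 and keeps them off DNA, had 23.6 FPKM (replicate 1) and 24.1 FPKM (replicate 2) in *35S-COLDAIR*, against 23.1 and 28.0 FPKM in Col-0. The replicate 2 library of Col-0 stood above the other 3. The difference was -0.089 (standard error 0.12), with a 95% interval from -0.40 to 0.22.

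*PIL1*, a bHLH relative of the PIF genes, had 0.994 FPKM (replicate 1) and 1.94 FPKM (replicate 2) in *35S-COLDAIR*, against 1.55 and 2.43 FPKM in Col-0. The transgenic library was the lower one within both replicate numbers, by differences of -0.35 and -0.22, but the genotypes overlap, since its replicate 2 exceeded replicate 1 of Col-0. Over the 4 libraries the difference was -0.29 (standard error 0.27), with a 95% interval from -1.01 to 0.43, or 0.496-fold to 1.35-fold on this scale. The highest library of *PIL1* was 2.45 times the lowest in FPKM, the widest ratio of the 8 genes.

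*ATHB2*, whose product promotes elongation in shade, had 59.5 FPKM (replicate 1) and 88.4 FPKM (replicate 2) in *35S-COLDAIR*, against 39.9 and 85.3 FPKM in Col-0. The means were 73.9 ± 20.5 FPKM in *35S-COLDAIR* and 62.6 ± 32.1 FPKM in Col-0 (SD, n = 2 each), and the highest library was 2.22 times the lowest. The difference was 0.31 (standard error 0.41), with a 95% interval from -0.79 to 1.40, and it was 0.56 within replicate 1 and 0.051 within replicate 2. Its size rests on the replicate 1 library of Col-0. Without that library the difference was -0.23, but this fit sets both *35S-COLDAIR* libraries against the replicate 2 library of Col-0 alone. The difference between replicate numbers then enters it. The replicate 1 library of Col-0 had the highest level of 3 of 3 seed markers. The seed storage protein gene *CRA1* was at 11.0 and 8.40 FPKM in *35S-COLDAIR* and at 22.0 and 5.60 FPKM in Col-0, and *SESA1*, another such gene, at 0.102 and 0.364 FPKM in *35S-COLDAIR* and at 1.99 and 0.103 FPKM in Col-0. The part of seed RNA in the levels of *ATHB2* was not tested.

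**Figure D2:**
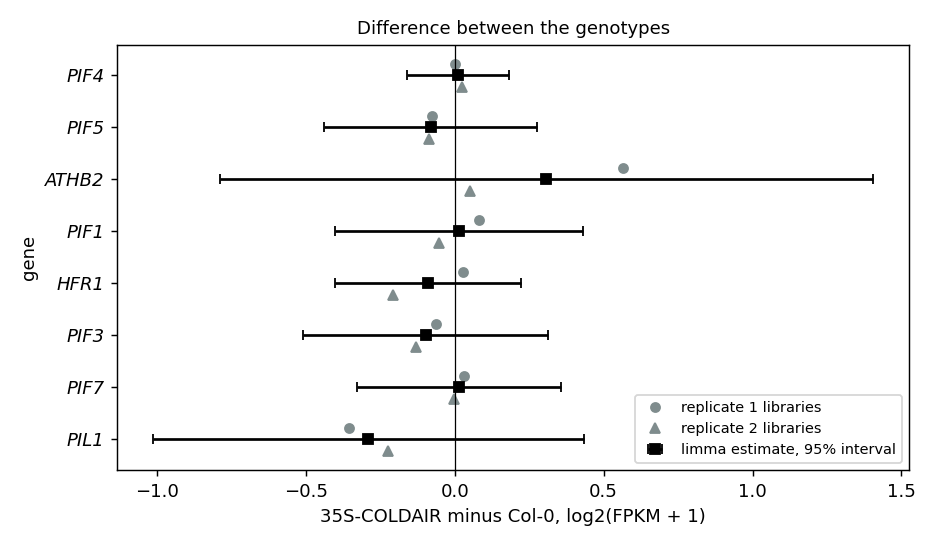
Difference of log2(FPKM + 1), 35S-COLDAIR minus Col-0, for each gene, with squares for the limma estimate, horizontal bars for its 95% interval, circles for the difference between the replicate 1 libraries and triangles for that between the replicate 2 libraries. Each interval includes 0, from the narrowest, of *PIF4* (-0.16 to 0.18), to the widest, of *ATHB2* (-0.79 to 1.40).

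For all 8 genes, the replicate numbers differed by more than the genotypes. Replicate 2 minus replicate 1, averaged over the genotypes, was larger in size than the difference between the genotypes for 8 of 8 genes. The share of all genes for which this holds was not counted. Over all genes tested, the median size was 0.113 between replicate numbers and 0.088 between the genotypes. Replicate 2 minus replicate 1 had the same sign in *35S-COLDAIR* and in Col-0 for 8 of 8 genes, against 62.5% of all genes tested. *PIL1*, *ATHB2*, *HFR1* and *PIF4* were on the higher side in replicate 2 of both genotypes, as were 29.8% of all genes, and *PIF1*, *PIF3*, *PIF5* and *PIF7* on the lower side, as were 32.7%. These are descriptions with no test, because each compares single libraries. Differences in growth, harvest or library preparation and in the scaling of the tables cannot be told apart here.

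*ATHB2* and *PIL1* had the largest such differences, and that of *PIF4* exceeded its genotype difference only narrowly (0.026 in *35S-COLDAIR* and 0.0016 in Col-0). For *ATHB2*, replicate 2 was 1.49 times its replicate 1 in *35S-COLDAIR* and 2.14 times in Col-0, log2 differences of 0.56 and 1.08. It was the 1 gene of 8 above 0.5 on the log2 scale in both genotypes, as were 1.87% of all genes tested, a limit chosen after the values were seen. *PIL1* followed, at 1.95 times in *35S-COLDAIR* and 1.57 times in Col-0, log2 differences of 0.56 and 0.43 on the scale that understates low genes. *HFR1* was at 1.02 times in *35S-COLDAIR* and 1.21 times in Col-0. The PIF genes other than *PIF4* were lower in replicate 2, at 0.777 to 0.845 times in *35S-COLDAIR* and at 0.835 to 0.866 times in Col-0.

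On the log2(FPKM + 1) scale, *ATHB2* had the widest range of the 8 genes. The genes whose pattern over the 4 libraries was most like that of *ATHB2*, by the root mean square difference of centred log2(FPKM + 1) levels, were AT4G37220 (0.036), *ENODL20* (0.047) and *SHY2* (0.048), the last of which encodes the auxin response repressor IAA3. *SHY2* had 43.4 and 68.9 FPKM in *35S-COLDAIR* and 31.6 and 63.3 FPKM in Col-0. AT4G37220 was lower, at 4.35 and 6.42 FPKM in *35S-COLDAIR* and at 2.44 and 6.25 FPKM in Col-0. *ENODL20* was at 1.39 and 2.39 FPKM in *35S-COLDAIR* and at 0.698 and 2.43 FPKM in Col-0. For these low genes the likeness depends on the scale, which understates their changes. *HAT1*, a relative of *ATHB2* in HD-Zip class II, ranked 5 by this measure (0.050). Its levels were 58.7 and 87.6 FPKM in *35S-COLDAIR* and 38.7 and 90.7 FPKM in Col-0. The other class II genes listed ranked from 560 (*HAT2*) to 19552 (*HAT9*), but the measure also weighs the size of changes. *HAT2* had the same order of libraries as *ATHB2*, with smaller changes. For *HAT3* and *ATHB4*, replicate 1 of Col-0 was likewise the lowest library and replicate 1 of *35S-COLDAIR* the next. *ATHB17* was also higher in replicate 2 of both genotypes, but its lowest library was replicate 1 of *35S-COLDAIR*. *HAT9*, *HAT22* and *HAT14* were lower in replicate 2 of both genotypes. Part of the family thus shared the direction of the pattern.

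Further genes of the pathway were taken as lists, chosen with earlier results of these data known. Their counts beside the shares of all genes are thus descriptions and no test. Of 8 other HD-Zip class II genes, 0 passed the limma test and 0 had an unadjusted p under 0.05, with a median difference between the genotypes of 0.041, beside 0.0020 for all genes tested. *ATHB4*, which also takes part in shade responses, was at 7.91 and 14.0 FPKM in *35S-COLDAIR* and at 1.69 and 15.3 FPKM in Col-0 (difference 0.80, adjusted p 0.9998 by limma). As for *ATHB2*, the replicate 1 library of Col-0 was the lowest. At the other end of the list, *ATHB17* was at 1.94 and 2.93 FPKM in *35S-COLDAIR* and at 2.44 and 3.32 FPKM in Col-0. In replicate 2 of both genotypes, 5 of the 8 were on the higher side and 3 on the lower side, against 29.8% and 32.7% of all genes.

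A list of 12 genes taken as targets in shade is called auxin and growth genes here. It includes *FHY1*, *FHL* and *CKX5*, which are not auxin genes. Of the 12, 0 passed the limma test and 0 had an unadjusted p under 0.05. Their differences between the genotypes ran from -0.18 (*IAA19*) to 0.19 (*YUC2*). In replicate 2 of both genotypes 11 of the 12 were on the higher side, against 29.8% of all genes tested. *TAA1*, for an auxin synthesis enzyme, was on the lower side. *XTH15*, for a cell wall enzyme, had 12.9 FPKM (replicate 1) and 49.1 FPKM (replicate 2) in *35S-COLDAIR*, against 14.0 and 36.6 FPKM in Col-0. *YUC9*, for another auxin synthesis enzyme, had 3.12 and 7.29 FPKM in *35S-COLDAIR* against 2.56 and 8.21 FPKM in Col-0. The 11 genes lay on the same side as *ATHB2* and *PIL1* in both genotypes, and *TAA1* did not.

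The COP1, SPA and HY5 list, genes that act downstream of the photoreceptors, lay mostly on the other side. Of its 8 genes, 7 were on the lower side in replicate 2 of both genotypes, against 32.7% of all genes tested, the exception being *SPA2*. Between the genotypes, 0 passed the limma test and 0 had an unadjusted p under 0.05. *SPA3* had 18.9 FPKM (replicate 1) and 7.83 FPKM (replicate 2) in *35S-COLDAIR*, against 19.0 and 9.79 FPKM in Col-0. *SPA2* had 17.3 and 15.7 FPKM in *35S-COLDAIR* against 15.3 and 15.3 FPKM in Col-0.

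**Figure D3:**
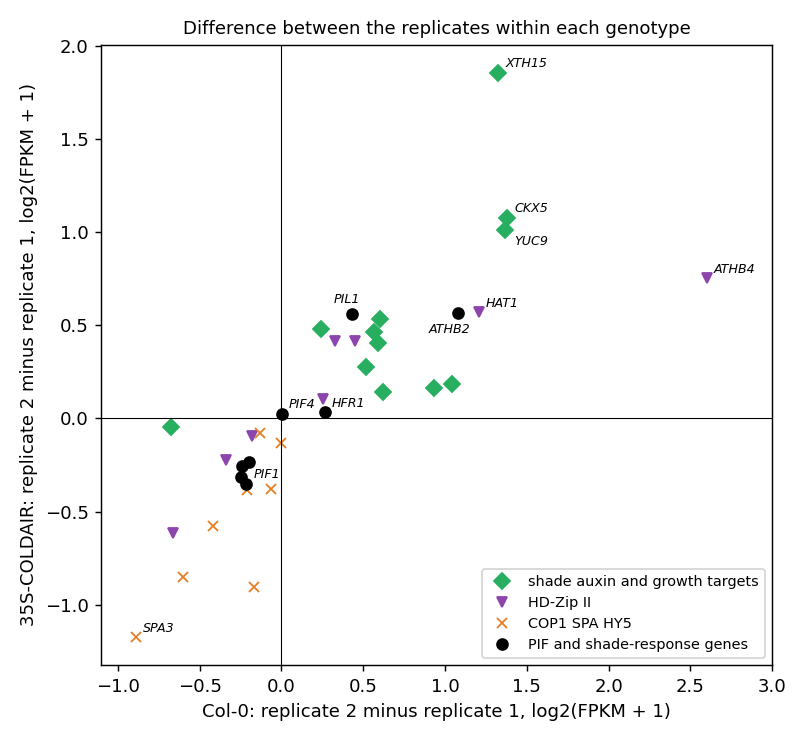
Difference of replicate 2 minus replicate 1 in log2(FPKM + 1) within 35S-COLDAIR (vertical) and within Col-0 (horizontal), 1 point per gene, for the PIF and shade-response genes (circles), auxin and growth genes (diamonds), HD-Zip class II genes (triangles) and the COP1, SPA and HY5 list (crosses). *ATHB2* and *PIL1* lie in the upper right with 11 of 12 auxin and growth genes, and the PIF genes other than *PIF4* lie in the lower left with 7 of 8 genes of the COP1, SPA and HY5 list.

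Of 10 clock genes, 0 passed the limma test between the genotypes and 0 had an unadjusted p under 0.05. In replicate 2 of both genotypes 7 were on the higher side, against 29.8% of all genes tested. *CCA1*, *LHY* and *PRR9*, which peak in the morning, were on the lower side, against 32.7%. *CCA1* had 44.3 FPKM (replicate 1) and 23.6 FPKM (replicate 2) in *35S-COLDAIR*, against 51.6 and 27.8 FPKM in Col-0. *LHY* differed by -0.96 in *35S-COLDAIR* and by -1.12 in Col-0, replicate 2 minus replicate 1, and by -0.59 between the genotypes. The evening gene *LUX* lay on the other side, with 15.1 and 22.8 FPKM in *35S-COLDAIR* against 9.37 and 17.0 FPKM in Col-0, and so did *PRR5*, with 16.1 and 23.1 FPKM in *35S-COLDAIR* against 11.1 and 17.3 FPKM in Col-0. The part of the clock genes in the replicate differences of *ATHB2*, *PIL1* and the PIF genes was not tested.

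The photoreceptors and the bHLH relatives of the PIF genes gave no calls. Of the 5 phytochrome genes 0 passed the limma test and 0 had an unadjusted p under 0.05, and *PHYA*, the receptor for far-red light, had 53.9 and 87.5 FPKM in *35S-COLDAIR* against 46.4 and 66.0 FPKM in Col-0. Of the 4 bHLH relatives, *PIF6*, *PIF8*, *SPT* and *ALC*, likewise 0 passed either limit, with differences from -0.14 (*PIF6*) to 0.15 (*PIF8*).

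Of 8 genes for helix-loop-helix proteins that do not bind DNA, 0 passed over all genes. An unadjusted p under 0.05 by limma was reached by 2, *PRE5* and *PRE2*, against 2.59% of all genes tested. *PRE5* was at 0.469 and 0.753 FPKM in *35S-COLDAIR* and at 2.23 and 2.28 FPKM in Col-0 (difference -1.02, standard error 0.17, adjusted p 0.9998 by limma). *PRE2* was at 21.0 and 15.7 FPKM in *35S-COLDAIR* and at 26.3 and 24.0 FPKM in Col-0 (difference -0.44, adjusted p 0.9998 by limma). The libraries of the genotypes were apart for 5 of the 8 genes, against 29.1% of all genes tested, with *PRE1*, *PRE2*, *PRE5* and *PRE6* on the lower side and *PRE3* on the higher side in *35S-COLDAIR*. *PRE1* was at 13.4 and 14.0 FPKM in *35S-COLDAIR* and at 20.4 and 15.9 FPKM in Col-0, and *PRE3* at 20.4 and 19.0 FPKM in *35S-COLDAIR* and at 14.0 and 18.6 FPKM in Col-0. *PRE4* had the largest difference of the list, 1.08, from 1 library, with 0 and 3.50 FPKM in *35S-COLDAIR* and 0 and 0 FPKM in Col-0. Both *PRE5* and *PRE4* were low, with means over the 4 libraries of 1.43 and 0.874 FPKM. PRE proteins counteract other helix-loop-helix proteins and promote cell elongation. *PAR1*, whose product holds back the shade response, had 57.0 and 111.4 FPKM in *35S-COLDAIR* against 37.8 and 107.4 FPKM in Col-0, with replicate 2 the higher one in both.

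Of 7 chlorophyll synthesis genes, a process that PIF1 and PIF3 hold back in the dark, 0 passed over all genes. At an unadjusted p under 0.05 by limma the count was 2 of 7, against 2.59% of all genes tested. *PORA*, a protochlorophyllide oxidoreductase gene known for its high level in dark-grown seedlings, was at 29.4 and 28.4 FPKM in *35S-COLDAIR* and at 55.5 and 46.9 FPKM in Col-0 (difference -0.80, standard error 0.11, adjusted p 0.9998 by limma). *HEMA1*, at the start of tetrapyrrole synthesis, was at 330.8 and 307.1 FPKM in *35S-COLDAIR* and at 236.7 and 276.8 FPKM in Col-0 (difference 0.32, adjusted p 0.9998 by limma). The libraries of the genotypes were apart for 3 of the 7 genes, against 29.1% of all genes tested, *PORA* on the lower side and *HEMA1* and *CHLH* on the higher side in *35S-COLDAIR*. *PORB* and *PORC* differed by 0.14 and 0.0090.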

How the data were processed

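The authors mapped the reads to TAIR10 and deposited FPKM values per gene in 2 tables. The study's methods name TopHat 2.1.0, with up to 2 mismatches, and cuffdiff 2.0.1, whereas the submitters' processing notes name STAR 2.5.2b and Cuffdiff. The annotation, strand setting and treatment of reads with several positions are not given in the sources used here, which bears on overlapping genes.

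Columns were assigned to libraries by their own names, while the tables themselves are numbered the other way round. Of 33854 identifiers, 31416 matched a locus of TAIR10.1, which gave names and positions.

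Levels log2(FPKM + 1) were compared with limma 3.58.1 in R 4.3.3 (variance trend, no block, Benjamini-Hochberg adjustment, threshold 0.05) over the 20142 genes whose mean reached 0.5 FPKM. The procedure was tested on simulated data. FPKM values are not counts, so no count test was run, and precision is limited by 2 libraries per genotype and an unknown number of fragments. The 8 genes and all lists were chosen with earlier results of these data known. Named genes were the 8, *FLC*, in each list those with an unadjusted p under 0.05 with or without the block or else those with the largest and smallest difference, any auxin and growth or HD-Zip class II gene, and the 3 nearest in pattern to *ATHB2*, the gene of the 8 with the widest range in log2(FPKM + 1). *HAT1* as a neighbour in pattern, *SPA3*, *PAR1*, *PRE3*, *PRE4*, *PRE6*, *PRR9*, *CHLH*, *PORB*, *PORC*, the root markers *CASP1* and *PRP3* and the seed markers were named after their values were seen. Alternatives were a pseudocount of 0.1 FPKM, a filter at 1 FPKM or none, quantile normalization, median centring, no variance trend, a replicate block and each library left out.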

Additional observations from a re-analysis of the deposited data

How the results depend on the processing

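None of the 8 genes passed an adjusted p of 0.05 by limma under any of the 11 alternatives. With the replicate block, 7 genes were called over all genes, against 2 without it, and 1608 of 20142 genes had an unadjusted p under 0.05, against 522. *FLC* passed with the block (adjusted p 0.0035 by limma) and not without it (0.083). For the 8 genes the block gave adjusted p-values from 0.644 to 0.974 by limma and an unadjusted p of 0.061 at the lowest, of *ATHB2*. Among the listed genes, *PHYA*, *PRE1*, *CCA1*, *LHY*, *PRR5* and *LUX* had an unadjusted p under 0.05 by limma with the block and not without it. The deviations of same-numbered libraries correlated at 0.37 across 20142 genes, which are not independent replicates, and with 2 pairs this does not settle whether the numbers pair the libraries. Under the alternatives that kept all libraries, the differences of the 8 genes kept their sign in 56 of 56 values. Most of this was fixed in advance, since the filters, the block and the variance trend cannot change a difference in this balanced design. Only the pseudocount, quantile normalization and median centring could change it, and median centring only shifts all genes alike. The difference of *PIL1* was -0.45 with a pseudocount of 0.1 FPKM.

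With 1 library left out at a time, 0 to 1 genes were called over all genes, 0 without either *35S-COLDAIR* library and 1 without either Col-0 library. The difference ran from -0.16 to 0.19 for *PIF1*, from -0.25 to 0.061 for *PIF3*, from -0.00081 to 0.025 for *PIF4*, from -0.21 to 0.047 for *PIF5*, from -0.10 to 0.13 for *PIF7*, from -0.22 to 0.044 for *HFR1*, from -0.57 to -0.010 for *PIL1* and from -0.23 to 0.85 for *ATHB2*, so that only *PIL1* kept its sign. In these fits the lone library of a genotype is assumed to vary like those of the other. Leaving out 1 library also unbalances the replicate numbers, so the difference between them enters each value. Within both replicate numbers *35S-COLDAIR* was lower for *PIF3* (-0.064 and -0.13), *PIF5* (-0.074 and -0.087) and *PIL1*. It was higher for *ATHB2* (0.56 and 0.051). The sign differed between replicate numbers for *PIF1*, *PIF4*, *PIF7* and *HFR1*. The changes of sign thus do not separate the genotypes from the replicate numbers.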
